A study of Mus musculus with 6 samples.

Results

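The 7 genes described here encode cell surface receptors of thrombospondin-1 (TSP1) other than integrins, together with proteins that work with them: Cd36, Cd47, Sirpa, Lrp1, Calr, Cacna2d1 and Stab2. They were chosen by name, with earlier results of these data known, and each was read from the probe set that carries its symbol alone. All 7 were measured, each by 1 probe set, among 22180 named genes in all, and no filter on low signals was used. Total RNA was profiled on 6 Affymetrix GeneChip Mouse Gene ST arrays, 3 from TSP1 null mice and 3 from wild-type C57BL/6J mice, all female, in a series on dry eye disease, for which the null mouse serves as the model. Myoepithelial cells, the contractile cells around the secretory acini, had been cultured from the exorbital lacrimal gland in medium with 10% serum for about 2 to 3 weeks, without treatment. The labels call the samples of a group biological replicates but do not say how many animals or cultures stand behind each, so a p-value refers to the spread among these 6 arrays. They give no age, and no strain background for the null mice beyond TSP1 null. Values are log2 signals, and a difference is always TSP1 null minus wild type.

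TSP1 is a secreted matrix glycoprotein with many binding partners. CD36, a scavenger receptor and fatty acid translocase, binds its type 1 repeats and carries the signal that restrains blood vessel growth, while CD47 binds its C-terminal domain and damps nitric oxide signalling. CD47 also serves as a signal against engulfment when it meets SIRP alpha on phagocytes. Calreticulin at the cell surface and the endocytic receptor LRP1 form a complex that binds the N-terminal part of TSP1 and loosens focal adhesions, and LRP1 also takes TSP1 up for degradation. The calcium channel subunit alpha2delta-1, product of Cacna2d1, was described as a neuronal thrombospondin receptor in synapse formation. Stabilin-2, product of Stab2, is a scavenger receptor of sinusoidal endothelium for hyaluronan and apoptotic cells.

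The targeted gene Thbs1 read 12.73 to 13.03 on the arrays labelled null and 13.51 to 13.75 on the wild-type arrays, so it was lower there but still bright, and the place of its probes in the disrupted gene was not analysed here. Array medians lay between 5.25 and 5.32. Among markers of the labelled cell type, the smooth muscle genes Acta2 (13.85 to 14.01) and Cnn1 (11.64 to 12.22) were bright on all 6 arrays, while the basal epithelial factor Trp63 (4.47 to 4.93) lay below the median of all probe sets on each of them. Macrophage markers were also clear in these cultures and uneven between arrays. The mean of 20 macrophage genes was 8.98, 9.78 and 7.38 on the null arrays and 9.57, 10.26 and 10.40 on the wild-type arrays, and all 20 were lower in the null group, 13 of them at an unadjusted p under 0.05 and 0 after adjustment. Cd68 ran from 9.66 to 12.99, while Cd163 was dim on all 6 arrays (4.02 to 4.42). The third null array stands apart as the lowest, and values without it are given beside several of the larger differences that moved with or against this list. Other marker lists differed too. Krt14, a keratin of basal and myoepithelial cells, was at 5.78 to 6.35 on the null and 4.93 to 5.52 on the wild-type arrays, a difference of 0.89 (SE 0.20, limma adjusted p = 0.290), and the mean of 9 basal epithelial markers averaged 6.11 and 5.84, without overlap. The means of 9 acinar (5.09 and 5.31) and 8 lymphocyte markers (4.51 and 4.61) were lower in the null group without overlap, near or below the array medians. The mean of 10 luminal or ductal epithelial markers averaged 5.96 and 5.71 with overlap, and 9 of the 10 were higher in the null group. Fibroblast markers were bright on all 6 arrays and uneven between them. The mean of 12 was 9.70, 10.31 and 9.75 on the null and 10.60, 9.40 and 9.63 on the wild-type arrays, with overlap. The part of these markers in the results was not tested.

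With limma's moderated test and Benjamini-Hochberg adjustment over all genes, 0 of the 7 genes passed an adjusted p of 0.05, as did 0% of all genes. At an unadjusted p under 0.05 there was 1 of 7, Cd36, against a background of 10.6% of all genes (4.27% lower and 6.28% higher in the null group). For 3 of the 7 the groups did not overlap, against 15.8% of all genes. These were Lrp1 and Cacna2d1, higher in the null group (10.1% of all genes), and Stab2, lower there (5.75%). An exact permutation test of 3 arrays against 3 cannot go below 0.1, two-sided, and gave that value for these 3 genes. Leaving out the second null array, or instead the first wild-type array, gave 2 genes at an unadjusted p under 0.05 and 6 without overlap. Leaving out any of the other 4 arrays gave 0 genes at an unadjusted p under 0.05. Over all 22180 genes the count at this p ran from 1487 without the third null array to 2736 without the second. The share of all genes without overlap was not counted in these fits. A group of 2 arrays separates more easily than 1 of 3, so the 15.8% does not apply to the 6 genes.

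**Figure D1:**
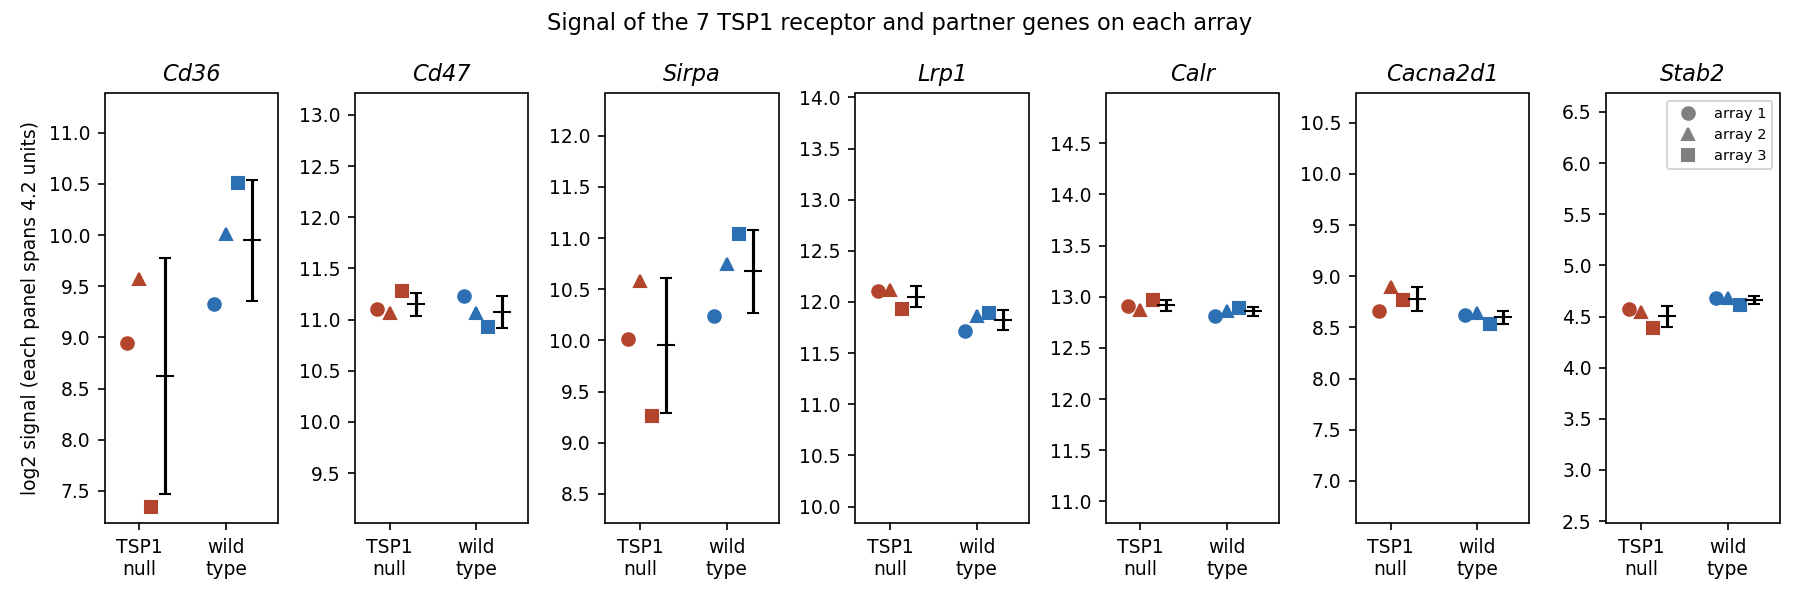
Log2 signal of each gene on the 3 TSP1 null arrays (red) and the 3 wild-type arrays (blue). Marker shapes give the array number, black bars the group mean and SD, and every panel spans the same height, so that Cd36 and Sirpa spread widely and the other 5 genes stay close together.

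Cd36 varied most among the 7 genes. Its signals were 8.95, 9.57 and 7.34 on the null arrays and 9.33, 10.01 and 10.51 on the wild-type arrays. The third null array was the lowest of all by a wide gap, and the second null array lay above the first wild-type array, so the groups overlapped. Group means were 8.62 ± 1.15 and 9.95 ± 0.59 (SD, n = 3), a difference of -1.33 (SE 0.55, 95% interval -2.61 to -0.050), or 2.51-fold lower in the null group. The unadjusted p was 0.044, the adjusted p from limma 0.462 and the exact permutation p 0.2. The difference was -0.69 with the third null array left out and -1.81 with the second left out, so its size depended on which null array was kept.

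Sirpa, which encodes the CD47 counter-receptor of myeloid cells and neurons and restrains phagocytosis through its cytoplasmic phosphatase-binding motifs, ranked the 6 arrays exactly as Cd36 did. It read 10.01, 10.58 and 9.26 on the null arrays and 10.24, 10.74 and 11.04 on the wild-type arrays. As for Cd36, the third null array was lowest and the second null array lay above the first wild-type array. The difference was -0.73 (SE 0.34, 95% interval -1.51 to 0.058), or 1.65-fold lower, with an adjusted p of 0.507 in the limma fit. It was -0.38 without the third null array and -1.04 without the second. Sirpa lies on chromosome 2, as Thbs1 does, with 165 measured genes between them.

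The macrophage list mean put the 6 arrays in the order shared by Cd36 and Sirpa, from the third null array through the first null, first wild-type, second null and second wild-type arrays to the third wild-type array. Of the 20 macrophage genes 13 (65%) had exactly this order, against 170 of 22180 genes (0.766%). Relative to their own means over the 6 arrays, Cd36 stood at -1.95 and the macrophage list at -2.02 on the third null array, and they stood at 1.22 and 1.00 on the third wild-type array. Pearson's r with the list mean was 0.991 for Cd36 and 0.981 for Sirpa over 6 arrays that also share their group difference, and 0.966 for each over the 5 arrays left without the third null array. With the list mean as a covariate the fitted difference was 0.0087 for Cd36 (95% interval -0.453 to 0.471) and 0.060 for Sirpa (-0.368 to 0.488). Fewer cells of a type and less RNA per cell cannot be told apart in bulk RNA. Cd36 is also an adipocyte and microvascular gene. The mean of 7 adipocyte markers was 5.01 to 5.64 on the null arrays and 5.02 to 5.18 on the wild-type arrays, and that of 12 endothelial markers was 4.97 to 5.14 and 5.02 to 5.38. The lipid genes Lpl (10.13 to 10.87), Pparg (8.11 to 9.36) and Fabp4 (7.03 to 8.59), which adipocytes and macrophages share, were brighter over the 6 arrays. The part of any of these cells in the Cd36 difference was not tested.

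**Figure D2:**
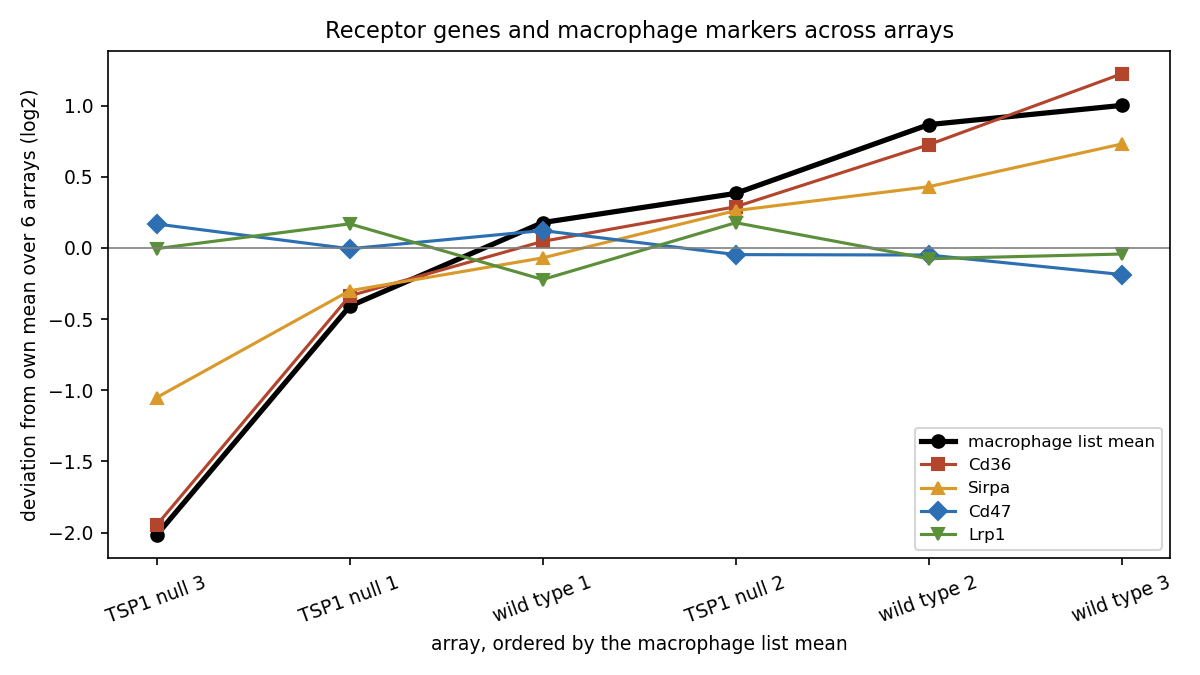
Deviation of each gene, and of the mean of 20 macrophage genes, from its own mean over the 6 arrays, in log2 units, with the arrays ordered by the macrophage mean. Cd36 and Sirpa climb with the macrophage line from the third null to the third wild-type array, while Cd47 runs slightly downward within a range of 0.35 and Lrp1 goes up and down along it.

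Cd47, the widely expressed immunoglobulin-family receptor, differed little between the groups. Its signals were 11.10, 11.06 and 11.28 on the null arrays and 11.23, 11.06 and 10.92 on the wild-type arrays. The groups overlapped, and the whole range over the 6 arrays was 0.35, or 1.28-fold. The difference was 0.077 (SE 0.13, limma adjusted p = 0.874), and its 95% interval, -0.22 to 0.37, spans 0.862-fold to 1.29-fold. Cd47 was highest on the third null array and lowest on the third wild-type array, the reverse of Cd36, with r = -0.848 between these genes over 6 arrays and -0.769 without the third null array. With the macrophage covariate its difference was -0.087.

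The regions just upstream of the annotated starts are shown for Cd36 and Cd47 because these receptors, which bind the same ligand, contrast in how much they varied, and for Calr because of the motif described further on. The windows are the 250 bases before the RefSeq start (GRCm38.p6), 5′ to 3′ on the gene's strand. For Cd36 (chr5:17835897-17836146, minus strand) and Cd47 (chr16:49855404-49855653, plus strand, the more upstream of 2 starts) the capitals mark CG dinucleotides. For Calr (chr8:84846932-84847181, minus strand) they mark the fixed letters of the motif.
Cd36: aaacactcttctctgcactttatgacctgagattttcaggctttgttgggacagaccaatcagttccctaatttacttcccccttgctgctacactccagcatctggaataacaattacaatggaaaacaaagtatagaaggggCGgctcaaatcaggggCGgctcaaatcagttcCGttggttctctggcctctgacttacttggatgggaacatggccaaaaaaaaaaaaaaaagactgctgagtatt
Cd47: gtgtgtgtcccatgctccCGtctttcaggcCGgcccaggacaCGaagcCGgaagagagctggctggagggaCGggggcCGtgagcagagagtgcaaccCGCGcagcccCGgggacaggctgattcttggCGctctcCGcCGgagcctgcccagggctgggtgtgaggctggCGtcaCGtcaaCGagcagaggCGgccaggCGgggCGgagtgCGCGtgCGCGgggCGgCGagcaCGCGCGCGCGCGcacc
Calr: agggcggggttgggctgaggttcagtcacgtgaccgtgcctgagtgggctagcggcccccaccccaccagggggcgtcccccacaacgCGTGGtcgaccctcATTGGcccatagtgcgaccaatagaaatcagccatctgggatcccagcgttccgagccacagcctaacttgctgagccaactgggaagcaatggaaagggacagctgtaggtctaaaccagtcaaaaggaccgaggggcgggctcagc

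Sequence windows were found for 6 of the 7 genes. Cd36 and Stab2 had 3 CG dinucleotides each in 250 bases, where the median of 32851 windows was 6. Lrp1 and Calr had 13 each, Cd47 30 and Cacna2d1 36, the last more than 97.4% of all windows. Cd36 therefore had a CG-poor upstream region (43.2% G and C) and Cd47 a CG-rich one (73.2%). GGGCGG, the GC box bound by Sp1-type factors, was found on either strand 2 times each for Cd36, Cd47 and Calr. It was found 6 times for Cacna2d1, 1 time for Lrp1 and 0 times for Stab2, and is held by 32.7% of all windows.

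Calr encodes calreticulin, a calcium-binding lectin chaperone of the endoplasmic reticulum that is partly displayed at the cell surface, where it joins LRP1. It was the steadiest of the 7 genes, with 12.91, 12.87 and 12.97 on the null arrays and 12.81, 12.87 and 12.89 on the wild-type arrays. The groups overlapped within a total range of 0.16. The difference was 0.062 (SE 0.10, 95% interval -0.17 to 0.29, limma adjusted p = 0.872). The Calr window holds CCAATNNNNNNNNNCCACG, the endoplasmic reticulum stress element to which NF-Y and ATF6 bind, in its reverse orientation, so that the printed strand reads CGTGG, 9 other bases and ATTGG. Searched on both strands, this motif occurs in 37 of 32851 windows (0.113%), and each occurrence also contains the shorter CCAAT box, which 33.8% of windows hold. Among 19 other genes of the endoplasmic reticulum list with a window, 5 hold it: Calr4, Canx, Pdia6, Hspa5 and Hsp90b1. Their differences were -0.089, 0.099, 0.14, 0.32 and 0.044, in that order. Calr4 read only 3.21 to 3.50, below the array medians, so its signals do not show that it was expressed. The motif is in 1 of its 4 windows. The part of the element in these differences was not tested.

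Lrp1, the large endocytic receptor of the LDL receptor family, was higher on every null array than on any wild-type array, by a narrow gap. It read 12.11, 12.11 and 11.93 on the null arrays and 11.72, 11.86 and 11.90 on the wild-type arrays. Only 0.037 separated the third null from the third wild-type array. The difference was 0.23 (SE 0.11, 95% interval -0.035 to 0.49), or 1.17-fold higher, with an unadjusted p of 0.081 and an adjusted p of 0.532 in the limma fit. It ran from 0.17 without the first wild-type array to 0.29 without the third null array. Macrophages express Lrp1 too. Its r with their list mean was -0.163 over the 6 arrays and -0.392 without the third null array, and its difference with the macrophage covariate was 0.359 (95% interval 0.0077 to 0.709, unadjusted p = 0.046, limma adjusted p = 0.799). The part of macrophages in its signal was not tested.

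Cacna2d1 encodes an extracellular subunit that raises the surface density of voltage-gated calcium channels and is the target of gabapentin. Its signals were 8.66, 8.90 and 8.76 on the null arrays and 8.63, 8.64 and 8.53 on the wild-type arrays. Every null array was again above every wild-type array, with the lowest null and the highest wild-type array 0.025 apart. The difference was 0.18 (SE 0.11, 95% interval -0.081 to 0.44, limma adjusted p = 0.618), or 1.13-fold. Left-out arrays moved it between 0.12 (second null array) and 0.23 (first null array). Skeletal muscle and neurons are rich in this subunit. Mean signals of 10 skeletal muscle markers were 5.24 to 5.46 on the null and 5.15 to 5.47 on the wild-type arrays, and those of 8 neuron or glia markers were 5.60 to 5.75 and 5.53 to 5.86. Both lists overlapped between the groups and lay near the array median. The mean of 12 contractile markers was 9.69, 10.11 and 9.82 on the null and 9.69, 9.75 and 9.76 on the wild-type arrays. It overlapped too and, like Cacna2d1, was highest on the second null array. The part of any of these cell types in the Cacna2d1 difference was not tested. Cacna2d1 and Cd36 are near neighbours on chromosome 5, with 4 measured genes between them, and their differences were of opposite sign.

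Stab2 was dim on every array, at 4.57, 4.55 and 4.38 on the null arrays and 4.68, 4.68 and 4.62 on the wild-type arrays. All 6 signals lay below the array medians, where RMA compresses differences, so they do not show that the gene was expressed. Null arrays were below wild-type arrays without overlap, and the difference was -0.16 (SE 0.11, 95% interval -0.41 to 0.090, limma adjusted p = 0.649). Without the third null array it was -0.099, and with the macrophage covariate -0.075. The mean of 4 lymphatic endothelial markers, cells in which Stab2 is found, was 4.79 to 4.84 on the null and 4.81 to 5.03 on the wild-type arrays.

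**Figure D3:**
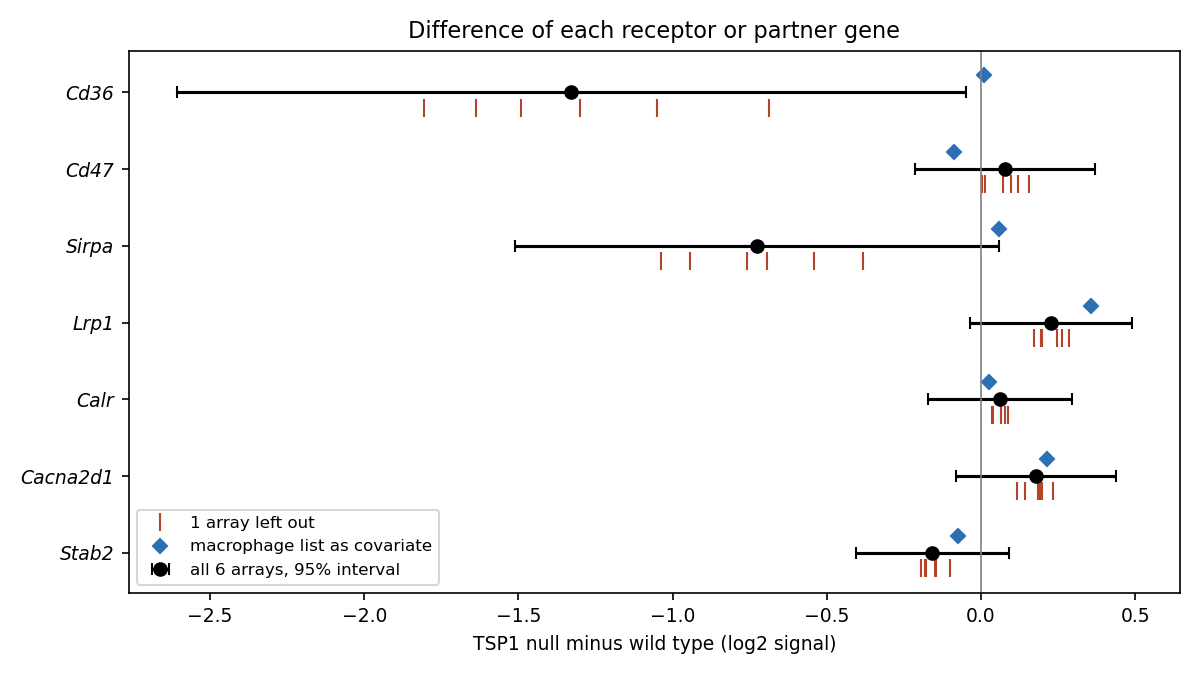
TSP1 null minus wild type for each gene in log2 units, with limma's 95% interval over all 6 arrays (black), the values with 1 array left out (red ticks) and the value with the macrophage list mean as a covariate (blue diamonds). Intervals of Cd36 and Sirpa are the widest, and their covariate values lie near 0, while the intervals of all genes but Cd36 cross 0.

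Of the 21 pairs of the 7 genes, Cd36 with Sirpa had the highest correlation over the 6 arrays (r = 0.991, or 0.986 without the third null array). These are descriptions over 6 arrays that share the group difference. Several other values depended on the third null array. Cd36 with Stab2 had r = 0.821 over 6 arrays and 0.264 over 5, and Cd36 with Calr had -0.663 and 0.052. Lrp1 had r = 0.582 with Cacna2d1, or 0.614 over 5 arrays, and 0.456 with its surface partner Calr, or 0.751 over 5.

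The genes whose pattern over the 6 arrays was most like that of each receptor were taken as the 3 with the highest Pearson r among 10460 genes. These were the 11090 genes at or above the median signal less 630 whose symbols mark predicted loci or small RNAs. For Cd36 they were Fcgr1, the high-affinity immunoglobulin G receptor of macrophages (r = 0.999), Pik3cg, the leukocyte PI3-kinase gamma (0.998), and Cd14, the lipopolysaccharide co-receptor (0.997). Their differences were -1.42, -1.25 and -1.26, and fell in size to -0.67, -0.69 and -0.65 without the third null array, as that of Cd36 did to -0.69. Sirpa was most like Sash3 (0.996), Wdfy4 (0.993) and Cyfip2 (0.993), of which Sash3 and Wdfy4 are known from immune cells. Cd47 was most like Mocs1 (0.988), Rnf2 (0.987) and Slc25a51 (0.986), a cofactor synthesis enzyme, a Polycomb ubiquitin ligase and the mitochondrial NAD carrier. Lrp1 was nearest to Tkfc (0.998), the matricellular gene Ccn4 (0.995) and Alkal2 (0.992), and Calr to the chaperonin subunit gene Cct8 (0.993), Caml (0.991) and Efr3b (0.987). Cacna2d1 was nearest to Sec22c (0.987), the sodium-calcium exchanger gene Slc24a3 (0.984) and Cdkl1 (0.983), and Stab2 to Polg2 (0.991), the lymphocyte potassium channel gene Kcna3 (0.982) and Coro7 (0.979). Each is the top of 10460 values computed over only 6 arrays and carries no test.

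Genes around the receptors in their pathways were described from 6 lists. The lists were chosen with earlier results of these data known, so their shares beside the background are descriptions only. In every list 0 genes passed after adjustment. Over all genes the median difference was 0.022, and 10.6% had an unadjusted p under 0.05. The list of the CD36 family with its signalling and lipid partners had 21 measured genes with a median of -0.082, 3 higher and 3 lower at an unadjusted p under 0.05 (28.6%). Without the third wild-type array 3 genes were at this p in place of 6, and without the second null array 7 were. Among all genes the count was 2341 on 6 arrays and ran from 1487 to 2736 with 1 array left out. The 10.6% therefore does not apply to fits that leave out 1 array. Cd9, a tetraspanin that associates with CD36 at the membrane, read 9.24, 9.81 and 9.26 on the null arrays against 10.49, 10.31 and 10.35. All null arrays were lower, by a difference of -0.94 (SE 0.17, limma adjusted p = 0.216). Cd9 has 2 probe sets, and with their mean the difference was -0.50 (limma adjusted p = 0.330). Without the second null array it was -1.13 at an adjusted p of 0.043, the only call in the 6 lists in any fit that left out 1 array. Dgat2, which completes triglyceride synthesis, was at 0.65 (SE 0.15) and the fatty acid transporter Slc27a4 at 0.55 (SE 0.17), each without overlap. Toll-like receptor 2, which can cooperate with CD36, was at -0.67 (Tlr2, SE 0.21), or -0.47 without the third null array. Of the other class B scavenger receptors, Scarb1 was at -0.44 (SE 0.22), or -0.29 without the third null array, and Scarb2 at 0.20 (SE 0.21).

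Of 21 genes of CD47 and SIRP signalling 1 was higher and 4 were lower at an unadjusted p under 0.05 (23.8%), and the median was -0.015. Counts at this p ran from 1 with the third null or the third wild-type array left out to 7 with the second null array left out, and were 3 when the first null or the second wild-type array was left out. Among all 22180 genes 1487 were at this p without the third null array and 2736 without the second. Fyb, a leukocyte adaptor, averaged 6.93 ± 1.17 on the null arrays and 8.78 ± 0.41 on the wild-type arrays (SD, n = 3). Again the third null array was lowest, and the difference was -1.84 (SE 0.53, limma adjusted p = 0.339), or -1.22 without that array and -0.55 with the macrophage covariate. Sirpb1a, an activating relative of Sirpa, was at -1.34 (SE 0.48), with the wild-type arrays split between 5.46 and 7.28 to 7.41, and its close paralogs make its probe set uncertain. Ptpn6, the SHP-1 phosphatase that SIRP alpha recruits in blood cells, was at -1.32 (SE 0.52), or -0.75 with the third null array omitted and -0.066 with the covariate, and Ptpn11, the widely expressed SHP-2, at 0.31 (SE 0.13). Kdr, the VEGF receptor that CD47 associates with, was at -0.55 (SE 0.18) on signals of 4.94 to 6.04. On the nitric oxide route, Pde5a, which breaks down cyclic GMP, read 8.92, 8.97 and 8.95 on the null arrays and 8.84, 8.08 and 8.25 on the wild-type arrays, a difference of 0.56 (SE 0.19). The guanylate cyclase subunits Gucy1a1 and Gucy1b1 differed by -0.076 (SE 0.20) and 0.0645 (SE 0.31), and the cyclic GMP-dependent kinase Prkg1 by 0.11 (SE 0.32). Gucy1a1 read only 3.48 to 4.16, below the array medians, so its signals do not show that it was expressed.

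The LDL receptor family and the partners of LRP1 held the most genes at an unadjusted p under 0.05, 9 of 23 (39.1%), 6 higher and 3 lower, with a median of 0.087. Without the third null array 6 genes were at this p, while over all genes the count went from 2341 to 1487. Lrp5, a Wnt co-receptor, read 9.13, 9.01 and 8.90 on the null arrays against 8.30, 8.24 and 8.29. The groups were well apart, with a difference of 0.74 (SE 0.11, limma adjusted p = 0.178). Vldlr, a lipoprotein and reelin receptor, was at 0.88 (SE 0.19) and Plat, tissue plasminogen activator and a ligand of LRP1, at 0.93 (SE 0.23), each without overlap. Their r with the macrophage list mean was -0.896 and -0.871. Without the third null array they were at 0.72 and 0.80, and with the macrophage covariate at 0.52 and 0.53. Lrp12 was lower, with 8.33, 8.33 and 8.30 on the null arrays and 8.80, 8.65 and 8.69 on the wild-type arrays. Its difference was -0.39 (SE 0.10, limma adjusted p = 0.321). Lrpap1, the chaperone that escorts LRP1 through the secretory pathway, differed by 0.087 (SE 0.13). Furin, which cleaves the LRP1 precursor, and Shc1, an adaptor of its tail, were at 0.28 (SE 0.11) and 0.48 (SE 0.13). Dab2, another adaptor of that tail, was lower on every null array than on any wild-type array, at -0.94 (SE 0.30). That value was -0.58 with the third null array omitted and -0.26 with the macrophage covariate. Apoe, a ligand and macrophage product, was at -1.25 (SE 0.43), and its groups overlapped. Its difference was -0.93 with the third null array left out and -1.70 with the first wild-type array left out. With the macrophage covariate it was -0.37.

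**Figure D4:**
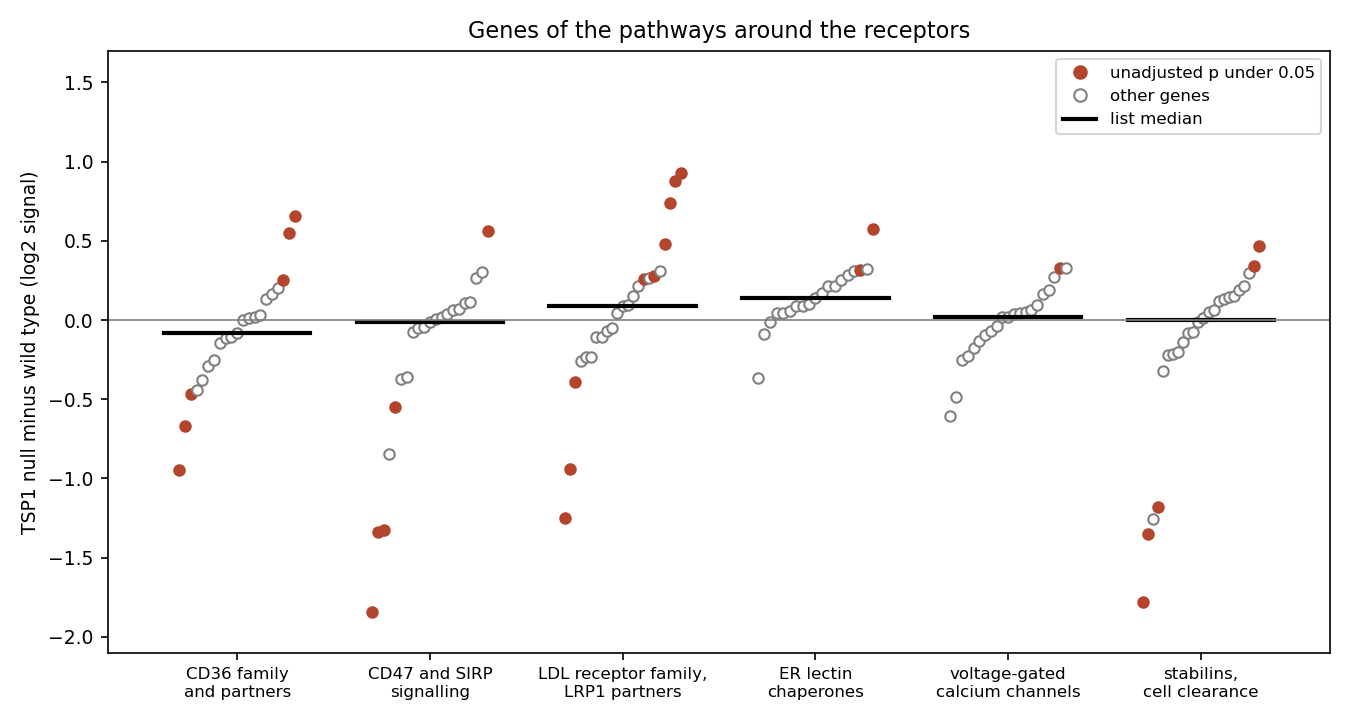
Difference of every measured gene of 6 lists around the receptors, as TSP1 null minus wild type in log2 units. Filled points have an unadjusted p under 0.05, none passed after adjustment, and black lines are list medians, which lie between -0.082 and 0.138.

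Of the 19 measured genes of the endoplasmic reticulum list 16 had a positive difference, as did 55.1% of all genes, and the median was 0.14. The list holds chaperones, calreticulin relatives and other genes of the secretory pathway. Only 2 had an unadjusted p under 0.05 (10.5%, near the background), and the groups did not overlap for 5 of 19, all with the null arrays higher (10.1% of all genes). Without the second null array 5 genes had an unadjusted p under 0.05, and 1 did when the first null, the third null or the third wild-type array was left out. Across all genes the same count ran from 1487 without the third null array to 2736 without the second. Ganab, a glucosidase II subunit that trims glycans for calreticulin, read 9.98, 9.89 and 9.91 on the null arrays against 8.93, 9.60 and 9.52, a difference of 0.57 (SE 0.18) that was 0.36 once the first wild-type array was omitted. Its other subunit, Prkcsh, was at 0.28 (SE 0.13), the disulfide isomerase P4hb at 0.32 (SE 0.13) and the chaperone Hspa5 at 0.32 (SE 0.14). For P4hb and Hspa5 r with the macrophage list mean was -0.874 and -0.869. Without the third null array they were at 0.27 and 0.22, and with the macrophage covariate at 0.16 and 0.13. In the same 2 fits Ganab was at 0.58 and 0.70, and Prkcsh at 0.30 and 0.35. The disulfide isomerase Pdia3, which binds calreticulin directly, was at -0.014 (SE 0.13).

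Voltage-gated calcium channel subunits had 1 of 21 genes at an unadjusted p under 0.05 (4.76%) and a median of 0.020. That count ran from 0 without the first or the third null array to 4 without the first wild-type array, and was 3 without the second null and 2 without the second wild-type array. The count over all 22180 genes also moved in these fits, from 1487 to 2736. Cacnb1, a cytoplasmic beta subunit, read 7.31, 7.22 and 7.38 on the null arrays and 6.87, 7.11 and 6.95 on the wild-type arrays, a difference of 0.33 (SE 0.11, limma adjusted p = 0.397). The next in order of p were Cacnb2 at -0.61 (SE 0.28), Cacna1d at -0.48 (SE 0.24) and Cacng7 at 0.33 (SE 0.17), whose groups overlapped. With its 2 probe sets averaged Cacnb2 was at -0.35, and Cacna1d was at -0.29 without the third null array. Other alpha2delta genes differed by 0.045 (Cacna2d2, SE 0.12), 0.19 (Cacna2d3, SE 0.14; 0.084 without the third null array) and -0.066 (Cacna2d4, SE 0.11), and the L-type channel gene Cacna1c by -0.17 (SE 0.22). Signals of these other alpha2delta genes were 4.30 to 5.01, below the array medians, so they do not show that the genes were expressed.

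Stabilins and genes for the clearance of apoptotic cells had a median of -0.001, with 2 of 24 higher and 3 lower at an unadjusted p under 0.05 (20.8%). There were 9 without the first wild-type array and 3 without the second. With 1 array left out the count over all 22180 genes ran from 1487 to 2736. Mertk, the engulfment receptor of resident macrophages, read 7.47, 7.93 and 6.33 on the null arrays and 7.98, 8.94 and 8.86 on the wild-type arrays. Its difference of -1.35 (SE 0.42, limma adjusted p = 0.368) again had the third null array lowest, and was -0.89 without it and -0.35 with the macrophage covariate. Its relative Tyro3 was at 0.34 (SE 0.12) and Axl, common in mesenchymal cells, at 0.30 (SE 0.17). Scarf2, a scavenger receptor family member, was at 0.47 (SE 0.15) and Elmo1, which drives engulfment through Rac, at -1.18 (SE 0.42), or -0.78 with the third null array omitted and -0.22 with the covariate. Stab1, the stabilin of macrophages, read 8.23, 8.72 and 6.61 on the null arrays and 8.23, 9.47 and 9.64 on the wild-type arrays. These groups overlapped, and the difference was -1.25 (SE 0.57), or -0.63 with the third null array omitted and 0.10 with the covariate, against -0.16 for the dim Stab2.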

How the data were processed

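Log2 signals of 41345 probe sets on each of 6 arrays were deposited by the authors, who made them with Partek and RMA per the submitters' processing notes. Versions, settings and build: not given in the sources used here. Symbols came from an annotation table of the platform, which gave 23521 of them exactly 1 symbol, 1814 several and 16010 none. Where a gene had several, the probe set with the highest mean was kept, leaving 22180 genes. Groups came from the sample titles, which write the null group as TSP1-1 where the source names call it TSP1 null. Null and wild-type arrays were compared with limma 3.58.1 (R 4.3.3; lmFit and eBayes, two-sided) without covariates, with Benjamini-Hochberg adjustment over all genes, a threshold of 0.05, and an exact permutation test per gene. SE and 95% intervals are limma's. The procedure was tested on simulated data. The number of arrays limits the precision. Arrays correlated at 0.978 to 0.988, so none was repeated.

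The members and lists were chosen with earlier results of these data known. The lists held 266 genes, 250 of them measured. Named were the 7 members, Thbs1, Acta2, Cd68, the 4 genes of smallest p in each pathway list and the 3 most correlated genes per member. The other genes named for their role were chosen after their values were seen. Alternatives were quantile normalization, median centring, omission of dim probe sets, the mean of a gene's probe sets, testing every probe set, another variance prior, array weights, a replicate block, a macrophage covariate, no moderation and leaving out each array. Upstream windows come from RefSeq (GRCm38.p6), whose table was otherwise used for names and gene order. Figures used matplotlib 3.10.9 under Python 3.11.15.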

Additional observations from a re-analysis of the deposited data

How the results depend on the processing

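Over 16 alternatives, 108 of 111 differences of the 7 genes kept their direction, and none passed the threshold in any of them. The other 3 came with the macrophage list mean as a covariate: 0.0087 for Cd36, -0.087 for Cd47 and 0.0597 for Sirpa. The same covariate turned Cacna1d (0.0037), Fcgr1 (0.0946), Cd14 (0.0189), Mocs1 (-0.15), Rnf2 (-0.11), Slc25a51 (-0.16), Sash3 (0.11) and Wdfy4 (0.15). How much of these shifts the covariate, which is itself lower in the null group, takes from the group difference was not tested. When an array was left out, Mocs1 ran from -0.0252 to 0.163. Calls over all genes numbered 2 with every deposited probe set tested, where the count of features is larger, and 0 to 34 with an array left out, 34 of them lacking the second null array and 1 lacking the first wild-type array. Calls in the 6 pathway lists then ran from 0 to 1. Stab2 has no value where dim probe sets were left out. Members at an unadjusted p under 0.05 ranged from 0 to 2, and those whose groups did not overlap from 2 to 6, with 6 when either the second null or the first wild-type array was left out. The share of all genes without overlap was not counted with an array left out, and the 15.8% from 6 arrays does not apply there. Deviations of same-numbered arrays from their group means correlated at -0.144, 0.184 and -0.162, and those of other pairs at -0.183 to 0.258. With 3 arrays per group these values cannot decide whether the arrays were paired. With the replicate number as a block there were 0 calls, Cd36 stood at -1.33 (unadjusted p = 0.056 in the limma fit) and the block changed no call.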
